A study of Mus musculus with 20 samples.

Results

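Bax, Bak1, Bcl2, Bcl2l1 and Mcl1, the genes of the 2 pore-forming effectors of mitochondrial apoptosis and of 3 of the proteins that hold them in check, were followed across mouse pluripotent stem cell lines and epiblast-like cells. The 5 genes were chosen by name from the 21361 genes of a deposited count table, with the knocked-out gene Bax among them. All 5 passed the filter on low counts, as did 16363 genes in all.

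Poly(A) RNA was sequenced from 20 libraries, each of a cell line. Wildtype embryonic stem cell lines from host embryos (ESC Host, 4 lines) were set against a single Bax heterozygous line (ESC BaxHet), Bax knockout lines derived on an earlier occasion (ESC BaxKO, 2 lines) and lines grown out of primordial germ cells (PGC-ESC). The latter lacked Bax (PGC-ESC BaxKO, 5 lines) or both Puma and Noxa (PGC-ESC DKO, 3 lines; genes Bbc3 and Pmaip1). Epiblast-like cells (EpiLCs), which resemble the epiblast shortly after implantation, were made in vitro from ESC Host 3 and 4 (EpiLC Host, 2 libraries) and from each DKO line (EpiLC DKO, 3 libraries). The ESC culture protocol used LIF with inhibitors of GSK3 and MEK, and no source used here gives the steps of EpiLC conversion. All Bax lines, BaxHet included, have the strain label C57Bl6J/129SvEvRoEp and all Host and DKO lines C57Bl6J, so Bax genotype, strain and derivation cannot be told apart between them, and DKO genotype and PGC origin cannot be told apart between PGC-ESC DKO and ESC Host.

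BAX and BAK lie dormant in healthy cells; once activated they oligomerise in the outer mitochondrial membrane and release cytochrome c, which starts the caspase cascade. BCL-2, BCL-XL (the main product of Bcl2l1) and MCL-1 bind the effectors and the BH3-only activators and so hold the membrane closed, while BH3-only proteins such as PUMA, NOXA and BIM relieve that block. Pluripotent stem cells are known to be primed for apoptosis, and MCL-1 and BCL-XL are known as survival factors of the early embryo.

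Library totals ran from 14255399 to 33376660 counts. The summed level of 7 markers of naive cells and of pluripotency in general was 5139 to 6272 CPM (reads of a gene scaled to the library total) in the 15 ESC and PGC-ESC libraries and 984 to 1419 CPM in the 5 EpiLC libraries, and 4 formative markers summed to 96.4 to 203 and to 1153 to 2219 CPM. Most of the EpiLC sum of the 7 was Pou5f1, a general marker like Sox2, at 1137 to 2072 CPM in ESC and PGC-ESC and 653 to 1085 CPM in EpiLC libraries. The naive marker Klf4 was at 231 to 635 and 2.46 to 10.8 CPM. Of the formative sum in EpiLC libraries, Dnmt3b made up the larger part (820 to 1550 CPM). Otx2, a further formative marker, overlapped between the states, at 0.379 to 8.96 CPM in ESC and PGC-ESC and 2.81 to 36.1 CPM in EpiLC libraries. All 4 trophoblast markers together fell in the range 95.2 to 203 CPM in ESC and PGC-ESC and 12.6 to 32.4 CPM in EpiLC libraries, and most of that was Tfap2c, at 78.4 to 174 and 7.54 to 27.2 CPM. Fibroblast markers (5 genes) summed to 2.81 to 16.8 CPM in ESC and PGC-ESC and 14.6 to 19.3 CPM in EpiLC libraries, and primitive endoderm markers (4 genes) to 3.21 to 10.2 and 5.47 to 11.6 CPM, with no marker at 0 in all libraries. These libraries are of whole cultures, in which fewer cells of a type and less RNA per cell cannot be told apart. The ribosomal precursor row Rn45s lay under 10000 CPM in 9 libraries (ESC Host 1 and 2, BaxHet, ESC BaxKO 1 and all 5 PGC-ESC BaxKO) and above it in the other 11. Reads of 4 Y-linked genes were present in PGC-ESC BaxKO 2 and 5 (214 and 212 CPM) and at 0 in PGC-ESC BaxKO 1, 3 and 4. Noxa transcript was low in the DKO lines (Pmaip1, 1.26 to 4.35 CPM in PGC-ESC DKO against 20.2 to 52.7 CPM in ESC Host, a log2 difference of -3.52 ± 0.69 with an adjusted p of 0.0567 by the test described below), whereas Bbc3 reads stood at 27.5 to 49.2 CPM in the libraries labelled PGC-ESC DKO and 38.5 to 49.7 CPM in ESC Host. No source used here says which part of each gene was deleted, so gene-level reads of Bbc3 do not check that label.

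The upstream sequences of Bcl2 and Mcl1 are shown because these 2 genes rose on conversion to EpiLCs in both sets of lines. Each is the 250 bases before the RefSeq start site on GRCm38.p6, the same genome build as mm10, for Bcl2 at chr1:106714291-106714540 on the minus strand and for Mcl1 at chr3:95658471-95658720 on the plus strand, written 5′ to 3′ along the gene with each GC box (GGGCGG or its reverse complement) in capitals.

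Bcl2: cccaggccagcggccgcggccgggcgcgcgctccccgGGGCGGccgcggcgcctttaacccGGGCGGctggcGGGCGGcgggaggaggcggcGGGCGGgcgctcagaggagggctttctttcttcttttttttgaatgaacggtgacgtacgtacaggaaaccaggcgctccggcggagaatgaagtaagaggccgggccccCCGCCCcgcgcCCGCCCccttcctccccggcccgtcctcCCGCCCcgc

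Mcl1: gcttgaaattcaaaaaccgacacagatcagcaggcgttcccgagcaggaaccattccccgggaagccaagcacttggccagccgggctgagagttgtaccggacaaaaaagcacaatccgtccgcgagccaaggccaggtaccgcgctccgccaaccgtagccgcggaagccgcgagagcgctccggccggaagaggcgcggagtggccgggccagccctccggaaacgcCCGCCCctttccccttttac

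The Bcl2 window held 7 GC boxes and 74.8% G and C, and the Mcl1 window held 1 GC box, 14 bases before the start, and 64.4% G and C, against a median of 52.4% over 32851 RefSeq windows of the same length. A GC box occurred in 32.7% of all those windows. Both strands were searched for 4 motifs (the GC box, the E-box with letters CACGTG, the CCAAT box and the TATA motif with letters TATAAA), and no matches in these windows overlapped. The 5 genes had 7 windows; that of Bax held 2 GC boxes and an E-box (6.02% of all windows hold one), and those of Bak1 and the 3 of Bcl2l1 held none of the 4 motifs. The CCAAT box (33.8% of all windows) and the TATA motif (12.4%) occurred in none of the 7. A match describes the letters of the window and no binding of a factor.

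Read against exon length, the order of the genes differed between the cell states. In ESC Host, CPM per kilobase of annotated exon was 227 ± 74.9 for Bax, 127 ± 22.7 for Mcl1, 42.1 ± 6.95 for Bak1, 14.2 ± 1.12 for Bcl2l1 and 0.0214 ± 0.0139 for Bcl2 (mean ± SD, n = 4). In EpiLC Host, Mcl1 stood highest at 187.3 ± 9.89 CPM per kilobase, ahead of Bax at 158 ± 17.8, Bak1 at 25.6 ± 0.439, Bcl2l1 at 9.88 ± 1.13 and Bcl2 at 0.681 ± 0.00354 (n = 2). In EpiLC DKO the 2 were closer, Mcl1 at 190.3 ± 13.96 and Bax at 177.3 ± 4.82 CPM per kilobase (n = 3). Mcl1 therefore passed Bax in level per annotated exon length in EpiLC libraries, by a small margin in the DKO lines. That crossing depends on the annotated lengths. In CPM alone the ESC Host mean of Mcl1 (434) was already above that of Bax (358). The lengths of the transcripts present were not tested. Bcl2 remained the lowest of the 5 in both states.

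**Figure D1:**
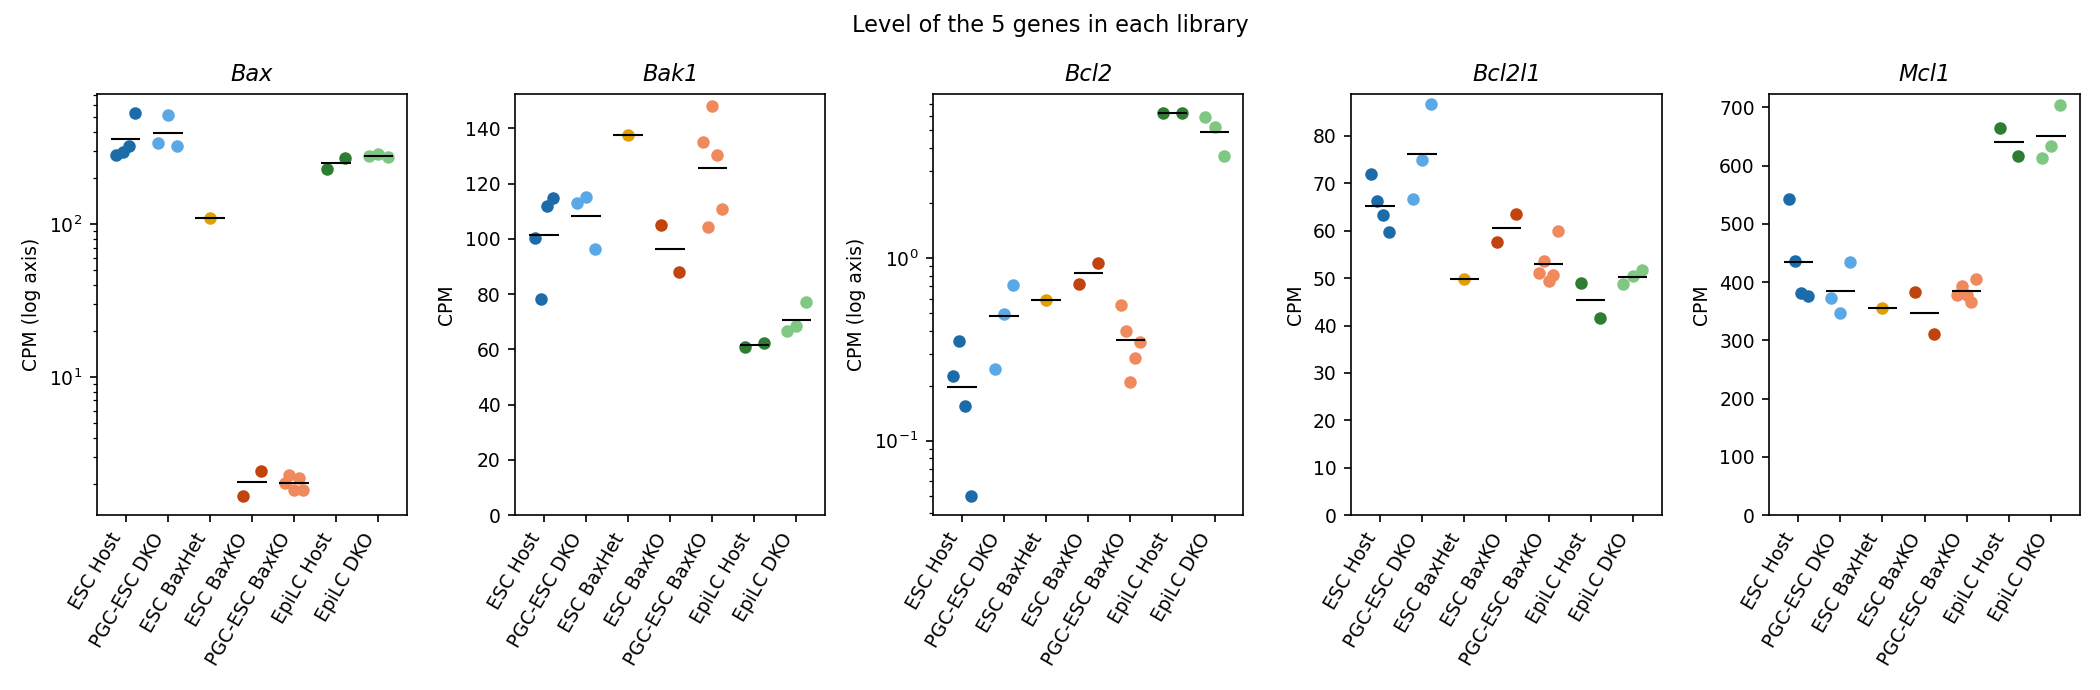
CPM of each of the 5 genes in each of the 20 libraries, by group; points are libraries, horizontal lines are group means, and the axes of Bax and Bcl2 are logarithmic. Bax sits near 2 CPM in the 7 BaxKO libraries, and Bcl2 lies at 3.61 CPM or above in the 5 EpiLC libraries and under 1 CPM in the other 15.

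Differences between groups were tested with edgeR's quasi-likelihood F test over 16363 genes in 1 fit of all 7 groups, and a gene was called at a Benjamini-Hochberg adjusted p under 0.05; all adjusted p-values below come from that fit unless another is named. Of the 5 genes, 2 were called between ESC BaxKO and ESC Host, where 5.02% of all genes were called (2.76% higher and 2.26% lower), and 2 between PGC-ESC BaxKO and ESC Host, where 17.3% were (7.94% higher and 9.37% lower). Between PGC-ESC BaxKO and PGC-ESC DKO 2 were called (23.6% of all genes). In each of these comparisons 1 of the 2 was Bax, the knocked-out gene, whose call follows from the genotype. Of the other 4 genes 1 was called in each, Bcl2 in the first comparison and Bcl2l1 in the others. On conversion to EpiLCs 4 of the 5 were called in the Host lines (44% of all genes) and 5 of 5 in the DKO lines (47.6%). Over the alternative settings these counts ran from 3 to 5 and from 4 to 5. Whether they exceed the share of all genes was not tested, and 5 genes chosen by name are few for it.

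None of the 5 genes was called in the other comparisons. With edgeR, 1 had an unadjusted p under 0.05 between PGC-ESC BaxKO and ESC BaxKO (0.0367% of all genes called, 0.00611% higher and 0.0306% lower) and 2 between PGC-ESC DKO and ESC Host (0.116%, with 0.055% higher and 0.0611% lower). The number was 0 between EpiLC DKO and EpiLC Host (0.0428%, with 0.0122% higher and 0.0306% lower) and 1 for the difference between the DKO and Host responses to conversion (0.00611%). DESeq2 called 0 of the 5 in each of these 4 comparisons.

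**Figure D2:**
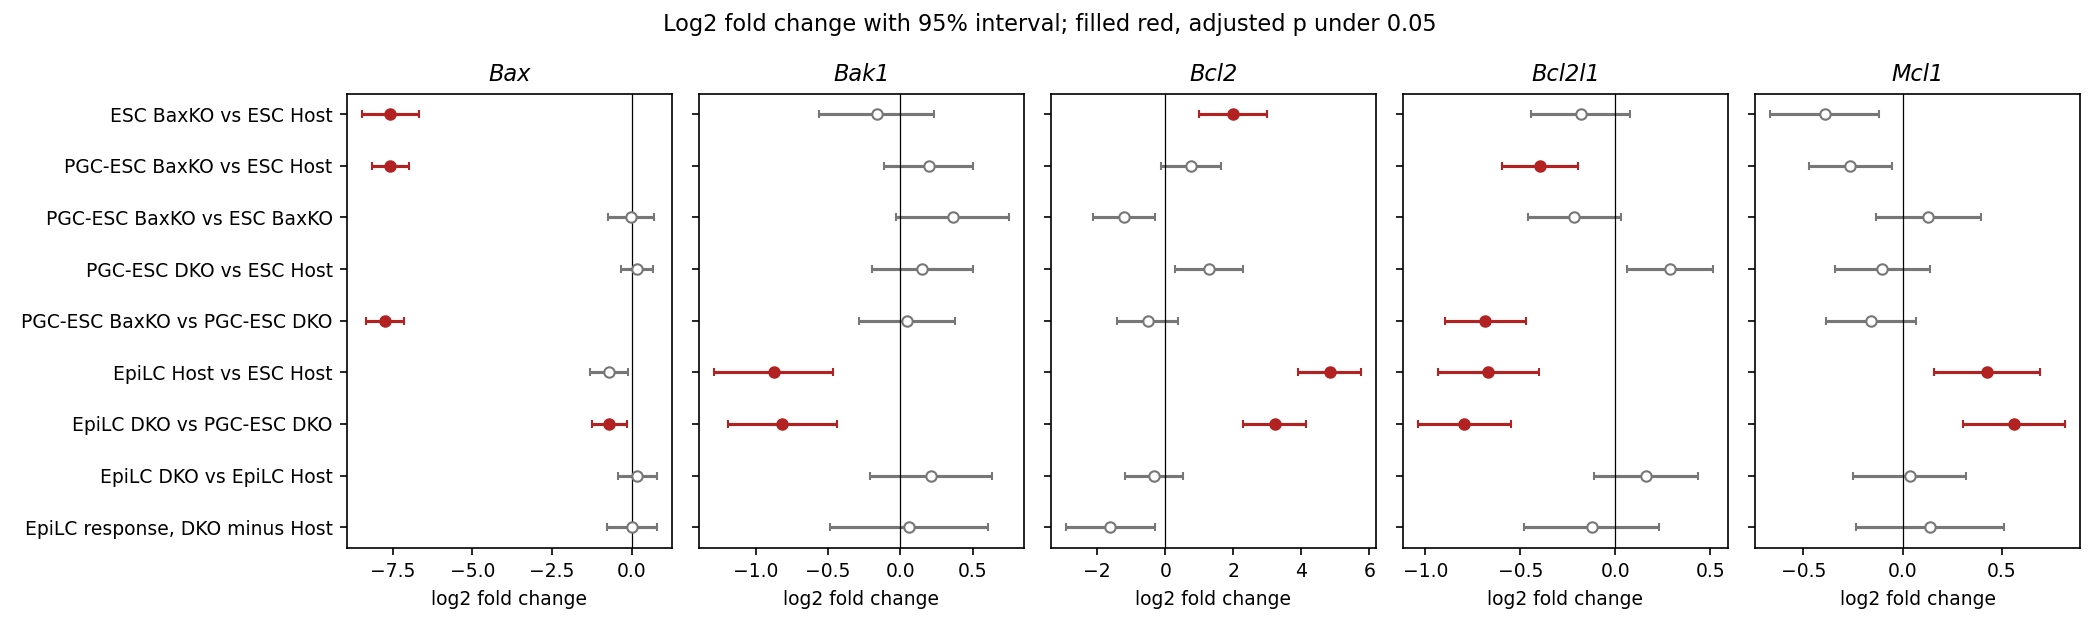
Log2 fold changes of the 5 genes (columns, each with its own scale) in the 9 comparisons (rows), with 95% intervals; filled red points have an adjusted p under 0.05. Bax stands apart at -7.57 to -7.76 in the 3 BaxKO comparisons, and the EpiLC comparisons carry most of the other filled points.

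Bax (chromosome 7, 45461697 to 45466898, minus strand, GENCODE M21) encodes the effector that moves from the cytosol to mitochondria when activated. ESC Host 1 to 4 had 283, 293, 321 and 533 CPM, and PGC-ESC DKO 1 to 3 had 335, 516 and 324 CPM. The heterozygous line had 109.6 CPM, 30.7% of the ESC Host mean, with no replicate. The knockouts had 1.66 and 2.43 CPM (ESC BaxKO 1 and 2) and 2.02, 2.29, 1.83, 2.18 and 1.82 CPM (PGC-ESC BaxKO 1 to 5). The 7 knockout libraries stood far below every other library and the BaxHet library between the groups, as their labels say. Between 33 and 75 Bax reads remained in each knockout library, and no source used here says which exons are deleted. The annotated gene Gm45808 shares 192 bases, 12.2% of the Bax exon length, on the same strand, and no source used here says how reads there were counted.

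The log2 difference in Bax from ESC Host was -7.57 ± 0.43 for the ESC knockouts (± SE, adjusted p 8.33e-09) and -7.58 ± 0.28 for the PGC-derived ones (adjusted p 1.08e-11). Against PGC-ESC DKO it was -7.76 ± 0.28 for the latter (adjusted p 1.16e-11). The knockout groups differed from each other by -0.01 ± 0.34 (adjusted p 1.00, 95% interval -0.73 to 0.71), an interval that holds differences of either sign. PGC-ESC DKO and ESC Host overlapped in Bax (0.18 ± 0.24, adjusted p 0.893).

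In EpiLC libraries Bax was at 229 and 269 CPM in Host 3 and 4 and at 278, 288 and 273 CPM in DKO 1 to 3. Both EpiLC Host libraries lay below all 4 ESC Host libraries (lowest 283 CPM), and all 3 EpiLC DKO libraries below all 3 PGC-ESC DKO libraries (lowest 324 CPM). Bax fell by 0.70 ± 0.26 on the log2 scale from PGC-ESC DKO to EpiLC DKO (adjusted p 0.0334), and the call was lost without PGC-ESC DKO 2 (-0.40, adjusted p 0.225), without EpiLC DKO 1, 2 or 3 (-0.69, -0.72 and -0.70, adjusted p 0.0816, 0.0717 and 0.0713) and on library totals without scaling (-0.49, adjusted p 0.0719). From ESC Host to EpiLC Host the value was -0.70 ± 0.28 (adjusted p 0.0508) and did not pass. With the cell line as a block, which pairs each EpiLC library with its parent line, it was -0.97 ± 0.23 (adjusted p 0.00756), and it also passed with no filter on low counts (adjusted p 0.0477), without ESC Host 1 (-0.83, adjusted p 0.0243), without ESC Host 2 (-0.82, adjusted p 0.0282), with the Rn45s set as a term (-1.02, adjusted p 0.00346) and within the high Rn45s set (-1.05, adjusted p 0.0151). The library with the highest Bax level, ESC Host 4, also had the highest Rn45s level (51924 CPM), and the next in both was PGC-ESC DKO 2 (45205 CPM); the part of Rn45s in the result was not tested beyond these fits.

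Bak1 (chromosome 17, 27019810 to 27029009, minus strand) encodes the effector that resides in the outer mitochondrial membrane and can permeabilise it without BAX. ESC Host 1 to 4 had 100.4, 78.1, 112 and 115 CPM, and ESC BaxKO 1 and 2 had 105 and 88.1 CPM. PGC-ESC BaxKO 1 to 5 had 135, 104, 148, 131 and 111 CPM, BaxHet 138 CPM, and PGC-ESC DKO 1 to 3 had 113, 115 and 96.5 CPM. BaxHet lay above every ESC Host library and within PGC-ESC BaxKO, and the replicated groups overlapped. Against ESC Host the log2 difference in Bak1 was -0.16 ± 0.19 for ESC BaxKO (95% interval -0.56 to 0.23, adjusted p 0.639) and 0.20 ± 0.15 for PGC-ESC BaxKO (95% interval -0.11 to 0.51, adjusted p 0.353). In this fit a rise of Bak1 by more than 0.51 lies outside both intervals. Over the alternative settings the PGC-ESC BaxKO value ran from -0.0002 to 0.516, so that bound holds for this fit only.

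In CPM of the library total, the EpiLC libraries held less Bak1 than any of the 15 ESC and PGC-ESC libraries. It was at 61.0 and 62.5 CPM in EpiLC Host 3 and 4 and at 66.8, 68.4 and 77.1 CPM in EpiLC DKO 1 to 3, against a lowest value of 78.1 CPM elsewhere. With Rn45s left out of the total, EpiLC DKO 3 and ESC Host 2 were at 78.48 and 78.43 CPM, and the states touched. With TMM scaling they were at 75.3 and 76.1 CPM. Bak1 fell by 0.88 ± 0.20 on the log2 scale in the Host lines (adjusted p 0.00148) and by 0.82 ± 0.18 in the DKO lines (adjusted p 0.00115), and both calls held in all 15 alternative settings of each. The 2 responses differed by 0.06 ± 0.26 (adjusted p 1.00, 95% interval -0.49 to 0.60). Ggnbp1, on the opposite strand, overlaps 25.5% of the Bak1 exon length; it was at 2.61 to 7.85 CPM over the 20 libraries, and no source used here says whether counting used strand.

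Bcl2 (chromosome 1, 106538178 to 106714274, minus strand) encodes the founding anti-apoptotic member of the family. In ESC and PGC-ESC libraries it was barely read: 6, 8, 5 and 1 reads in ESC Host 1 to 4 (0.0497 to 0.352 CPM), 19 reads in BaxHet (0.590 CPM), 20 and 20 in ESC BaxKO (0.722 and 0.935 CPM), 9, 13, 4, 7 and 8 in PGC-ESC BaxKO 1 to 5 (0.209 to 0.552 CPM) and 8, 7 and 11 in PGC-ESC DKO 1 to 3 (0.246 to 0.708 CPM). Both ESC BaxKO libraries lay above all 4 ESC Host libraries. Bcl2 passed the filter through 11 libraries at or above its minimum of 0.414 CPM, 5 of them EpiLC, and it also passed among the 15 ESC and PGC-ESC libraries alone.

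In EpiLC libraries Bcl2 had 146 and 166 reads in Host 3 and 4 (6.21 and 6.26 CPM) and 198, 139 and 58 reads in DKO 1 to 3 (5.93, 5.20 and 3.61 CPM). Every EpiLC library was above every other library, the lowest of them at 3.61 CPM against a highest of 0.935 CPM. Bcl2 rose by 4.83 ± 0.44 on the log2 scale in the Host lines (adjusted p 1.42e-07) and by 3.22 ± 0.44 in the DKO lines (adjusted p 1.24e-05), both called in all 15 alternative settings. The Host estimate rests on 20 reads over the 4 ESC Host libraries. The DKO response was lower than the Host response by 1.61 ± 0.62, which did not pass adjustment over all genes (adjusted p 1.00). Opposite-strand D630008O14Rik shares 6.09% of the Bcl2 exon length.

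Between ESC BaxKO and ESC Host, Bcl2 rose by 1.99 ± 0.47 (adjusted p 0.0225), at levels under 1 CPM in all 6 libraries. The call was lost, with a log2 difference close to that, without ESC BaxKO 1 (2.18, adjusted p 0.0800), without ESC BaxKO 2 (1.79, adjusted p 0.187), without ESC Host 3 (1.89, adjusted p 0.0559) and in a fit of these 2 groups alone (1.98, adjusted p 0.164). It was also lost, with a lower value, within the low Rn45s set (1.34, adjusted p 0.553). In PGC-ESC BaxKO the difference from ESC Host was 0.77 ± 0.42 (adjusted p 0.206), and in PGC-ESC DKO 1.28 ± 0.47 (adjusted p 0.583); these 3 comparisons share the ESC Host libraries.

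Bcl2l1 (chromosome 2, 152780668 to 152831728, minus strand) gives BCL-XL and, by splicing, the pro-apoptotic BCL-XS; gene-level counts do not separate them. ESC Host 1 to 4 had 72.0, 66.2, 63.3 and 59.8 CPM, and PGC-ESC DKO 1 to 3 had 66.8, 75.0 and 86.7 CPM. BaxHet had 49.8 CPM, ESC BaxKO 1 and 2 had 57.7 and 63.5 CPM, and PGC-ESC BaxKO 1 to 5 had 51.0, 53.6, 49.4, 50.6 and 59.9 CPM. PGC-ESC BaxKO lay wholly below PGC-ESC DKO and overlapped ESC Host only at its highest library, line 5.

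Bcl2l1 fell by 0.68 ± 0.10 on the log2 scale from PGC-ESC DKO to PGC-ESC BaxKO (adjusted p 0.000386); with the Rn45s set as a term the value was -0.61 (adjusted p 0.0577). Against ESC Host it fell by 0.40 ± 0.09 in PGC-ESC BaxKO (adjusted p 0.00963). That call was lost with the Rn45s set as a term (-0.36, adjusted p 0.0550), within the low Rn45s set (-0.36, adjusted p 0.127) and with only the 2 PGC-ESC BaxKO lines that have Y-linked reads (-0.27, adjusted p 0.203). All 5 PGC-ESC BaxKO libraries are in the low set and all 3 PGC-ESC DKO libraries in the high set, so within-set values cannot be had for that pair. ESC BaxKO did not differ past the threshold from ESC Host (-0.18 ± 0.12, adjusted p 0.403) or from PGC-ESC BaxKO (the latter lower by 0.21 ± 0.12, adjusted p 0.561).

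In EpiLC libraries Bcl2l1 was at 49.0 and 41.7 CPM in Host 3 and 4 and at 48.7, 50.5 and 51.8 CPM in DKO 1 to 3. All 5 were below the 7 ESC and PGC-ESC libraries of the same genotypes, which began at 59.8 CPM. It fell by 0.67 ± 0.13 on the log2 scale in the Host lines (adjusted p 0.000344) and by 0.79 ± 0.12 in the DKO lines (adjusted p 2.76e-05), called in all 15 alternative settings of each. The 2 responses differed by -0.12 ± 0.17 (adjusted p 1.00, 95% interval -0.48 to 0.23).

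Mcl1 (chromosome 3, 95658788 to 95663176, plus strand) encodes the short-lived anti-apoptotic protein that NOXA targets for degradation. ESC Host 1 to 4 had 543, 437, 382 and 375 CPM, PGC-ESC DKO 1 to 3 had 372, 347 and 435 CPM, and BaxHet had 355 CPM. ESC BaxKO 1 and 2 had 383 and 310.1 CPM, and PGC-ESC BaxKO 1 to 5 had 378, 393, 378, 366 and 405 CPM. The replicated groups overlapped, with ESC Host 1 the highest of these libraries. Against ESC Host, Mcl1 differed by -0.39 ± 0.13 for ESC BaxKO (adjusted p 0.0941) and by -0.26 ± 0.10 for PGC-ESC BaxKO (adjusted p 0.0739). Neither passed with edgeR; DESeq2 called both (adjusted p 0.0235 and 0.0430), and the second also passed with the Rn45s set as a term (-0.37, adjusted p 0.0435).

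The 5 EpiLC libraries had the 5 highest Mcl1 levels of all 20, at 664 and 616 CPM in Host 3 and 4 and 613, 634 and 704 CPM in DKO 1 to 3. Mcl1 rose by 0.42 ± 0.13 on the log2 scale in the Host lines (adjusted p 0.0114), a call lost without EpiLC Host 3 (0.37, adjusted p 0.108) and in a fit of these 2 groups alone (0.43, adjusted p 0.0997). In the DKO lines it rose by 0.56 ± 0.12 (adjusted p 0.00104) and was called in all 15 alternative settings. The 2 responses differed by 0.14 ± 0.18 (adjusted p 1.00, 95% interval -0.23 to 0.51).

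Ratios of read counts within a library need no scaling between libraries and no length correction when the same pair is compared. The count ratio of Mcl1 to Bak1 was 9.13 to 10.9 in the 5 EpiLC libraries and 2.55 to 5.59 in the 15 ESC and PGC-ESC libraries. That of Mcl1 to Bcl2l1 was 12.5 to 14.8 in EpiLC and 4.62 to 7.65 in the others. Neither ratio overlapped between the EpiLC and the other libraries. Both restate the rise of Mcl1 and the falls of Bak1 and Bcl2l1 given above, and how often other gene pairs separate the states was not counted. Mcl1 to Bax was 2.20 to 2.90 in EpiLC libraries and 0.672 to 1.92 in the 7 ESC and PGC-ESC libraries of Host and DKO lines. The balance of the effectors did not separate the states: Bax to Bak1 was 3.54 to 4.30 in EpiLC and 2.82 to 4.64 in those 7 libraries, and 0.796 in BaxHet. Bcl2l1 to Bak1 likewise overlapped, at 0.667 to 0.803 in EpiLC and 0.333 to 0.898 in the 15 others.

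**Figure D3:**
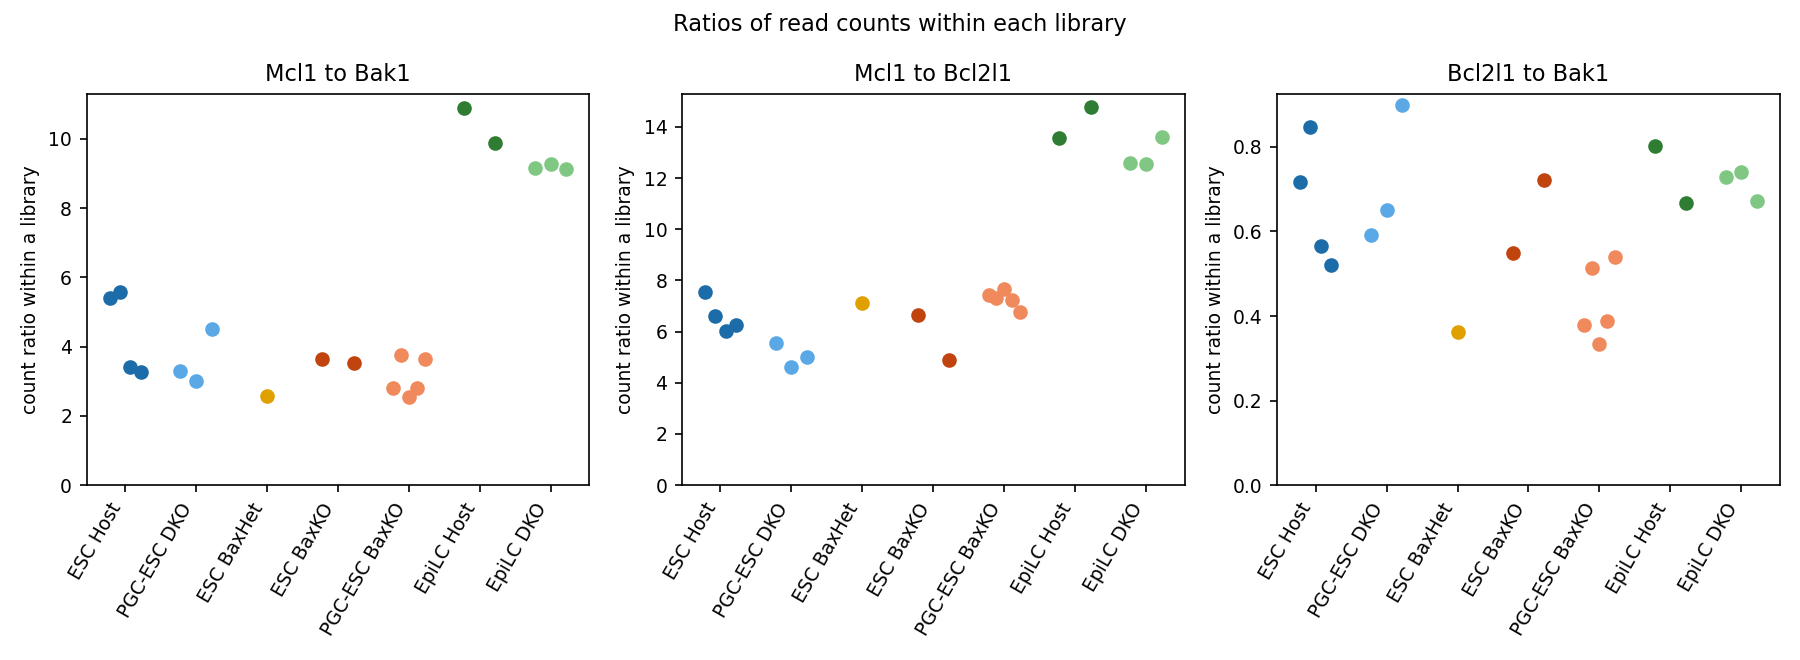
Ratios of read counts within each library for Mcl1 to Bak1, Mcl1 to Bcl2l1 and Bcl2l1 to Bak1, by group; each point is a library and the axes start at 0. The first 2 ratios place the 5 EpiLC libraries at 9.13 or above and 12.5 or above, clear of the rest, and the third overlaps between the states.

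The rest of the pathway was read from 5 lists of 38 genes, of which 37 were in the table (Bcl2a1d was not analysed here). Among other anti-apoptotic and effector genes only 2 of 6 were tested, Bcl2l2 and Bok; Bcl2l10, Bcl2a1a and Bcl2a1b did not pass the filter. Bok, a further effector-like member, rose by 1.30 ± 0.31 on the log2 scale in EpiLC Host (adjusted p 0.00233) and by 1.45 ± 0.31 in EpiLC DKO (adjusted p 0.000929). The other tested gene, Bcl2l2 (BCL-W), was at 16.3 to 30.8 CPM in ESC Host and 30.3 to 33.6 CPM in EpiLC Host and was not called.

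BH3-only genes rose more often than they fell on conversion. In the Host lines 5 of 8 rose and 1 fell, beside 22.4% and 21.7% of all genes tested, and the list's median log2 fold change was 1.16 against -0.03 over all genes. In the DKO lines 5 of 8 rose and 1 fell, beside 25.1% and 22.5%, with a median of 1.16 against 0.01. Both genes named in the DKO label are among these 8: Bbc3 is counted as risen in the DKO lines (0.75 ± 0.25, adjusted p 0.0203), from reads that include any part of the gene left in place, and Pmaip1 is counted as tested and not called there. Bcl2l11, which encodes BIM, a binder of every anti-apoptotic member, went from 10.3 to 17.0 CPM in ESC Host to 50.7 and 52.8 CPM in EpiLC Host (1.82 ± 0.17, adjusted p 2.13e-07) and rose by 1.97 ± 0.17 in the DKO lines (adjusted p 9.96e-08). Bik rose by 2.07 ± 0.40 and 2.00 ± 0.42 (adjusted p 0.000408 and 0.000894). Bad, whose product sequesters BCL-XL, fell by 1.07 ± 0.25 and 1.18 ± 0.23 (adjusted p 0.00186 and 0.000365).

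Noxa and Bmf passed the test in only 1 of the 2 sets of lines each. Pmaip1 rose to 314 and 333 CPM in EpiLC Host (3.10 ± 0.61, adjusted p 0.000542) and was at 3.86 to 5.69 CPM in EpiLC DKO (0.56 ± 0.70 against the parent lines, adjusted p 0.534). Bmf rose by 2.17 ± 0.29 in the DKO lines (adjusted p 1.04e-05) and changed by 0.51 ± 0.28 in the Host lines (adjusted p 0.153). Neither difference between the responses passed over all genes (Pmaip1 -2.54 ± 0.94, adjusted p 1.00; Bmf 1.65 ± 0.41, adjusted p 0.955). Between EpiLC DKO and EpiLC Host, Pmaip1 was the only one of the listed genes called (-6.06 ± 0.77, adjusted p 0.00118). As a gene named in the DKO label, Pmaip1 has a low level and no called rise in the DKO lines that follow from the genotype. Bmf is not named in that label.

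Downstream of the mitochondrion, 2 of 12 genes rose and 2 fell in the Host lines, and 3 rose and 1 fell in the DKO lines, shares near the background, with list medians of -0.08 and -0.11. Casp6, an executioner caspase, rose by 1.33 ± 0.29 in Host (adjusted p 0.00116) and by 1.20 ± 0.29 in DKO (adjusted p 0.00228). Aifm1, the gene of a flavoprotein of the intermembrane space, fell by 0.70 ± 0.22 in Host (adjusted p 0.0155) and by 0.65 ± 0.20 in DKO (adjusted p 0.0129). Dffb, the apoptotic nuclease, fell by 0.48 ± 0.18 in Host (adjusted p 0.0359) and Htra2, a mitochondrial protease, rose by 0.58 ± 0.18 in DKO (adjusted p 0.0130). Of 5 caspase inhibitors, Birc3 and Birc5 fell in both, Birc3 by 1.37 ± 0.29 and 1.03 ± 0.26 (adjusted p 0.000836 and 0.00303) and Birc5, also a mitotic protein, by 0.52 ± 0.15 and 0.52 ± 0.14 (adjusted p 0.00942 and 0.00556). Beside these 2 of 5, 21.7% and 22.5% of all genes were called lower, and the list medians were -0.40 and -0.13 against -0.03 and 0.01 over all genes. Among 7 partners and regulators of the 5 genes, 2 fell in the Host lines and 4 in the DKO lines and none rose, with medians of -0.37 and -0.40; the Host count is near the share of all genes called lower (21.7%, and 22.5% in the DKO lines). Trp53, the gene of p53, a transcriptional activator of Bax, fell from 488 to 651 CPM in ESC Host to 269 and 278 CPM in EpiLC Host (-1.11 ± 0.16, adjusted p 2.53e-05) and by 1.02 ± 0.15 in the DKO lines (adjusted p 2.06e-05). Vdac1, a mitochondrial outer membrane channel, fell by 1.19 ± 0.19 and 1.14 ± 0.18 (adjusted p 8.67e-05 and 4.58e-05). In the DKO lines Fbxw7, a ubiquitin ligase subunit that targets MCL-1, fell by 0.39 ± 0.12 (adjusted p 0.0132) and Vdac3 by 0.40 ± 0.14 (adjusted p 0.0292). Vdac2, which binds BAK, was not called in either; it was at 331 to 342 CPM in EpiLC Host and 312 to 361 CPM in ESC Host.

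**Figure D4:**
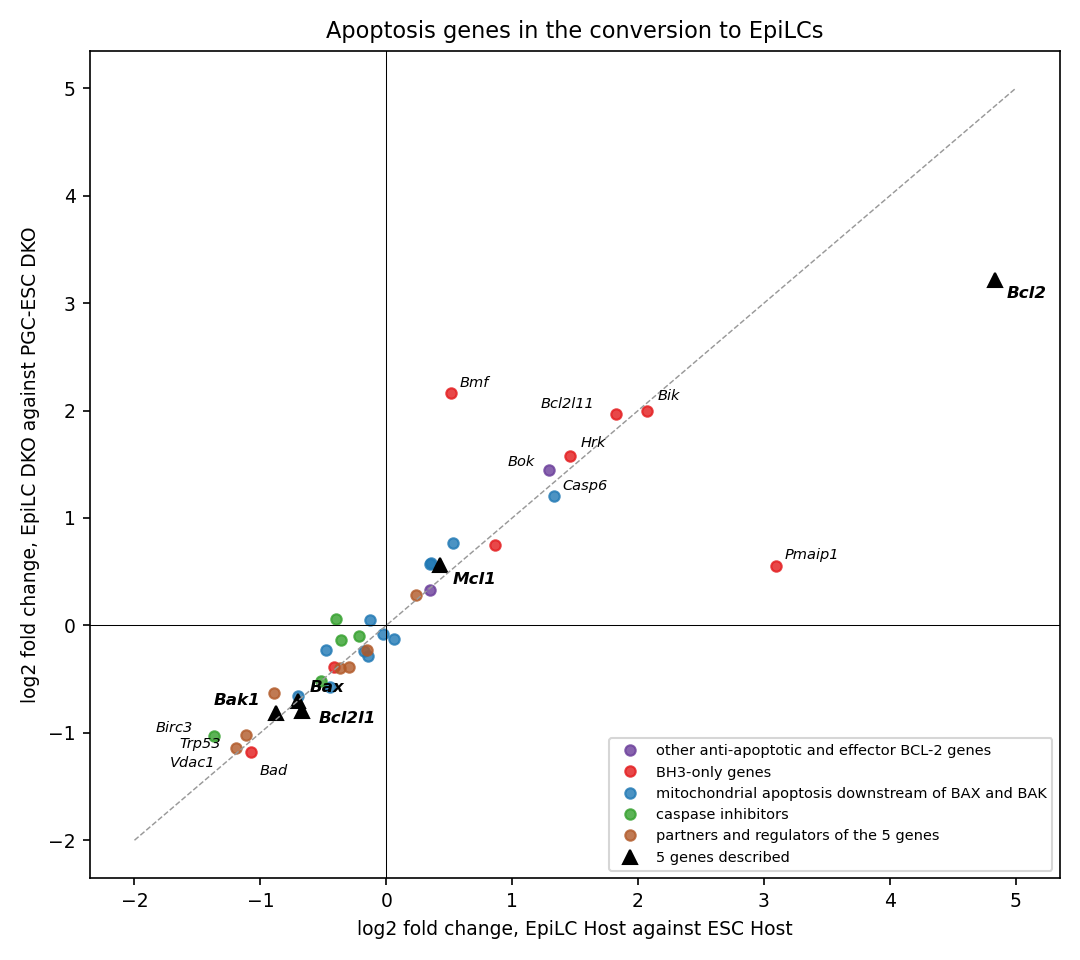
Log2 fold change of each tested apoptosis gene on conversion to EpiLCs in the Host lines (horizontal) and the DKO lines (vertical), which share no libraries; triangles are the 5 genes, circles the genes of the 5 lists, and the dashed line marks equal change. Bcl2 lies at 4.83 and 3.22, and Pmaip1 (3.10 and 0.56) and Bmf (0.51 and 2.17) lie farthest off the line among the listed genes. Pmaip1 is knocked out in the DKO lines by their label.

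In the comparisons with Bax lines between 0 and 9 of the 34 tested genes of the lists were called. Between ESC BaxKO and ESC Host none of the 34 tested genes was called by edgeR, beside 5.02% of all genes; the most abundant of them, Vdac1, was at 865 to 903 CPM in ESC BaxKO and 875 to 1285 CPM in ESC Host. None passed between the PGC-derived and the ESC knockouts, between PGC-ESC DKO and ESC Host or for the difference of the EpiLC responses. Between PGC-ESC BaxKO and ESC Host 6 of 34 were, 4 higher and 2 lower, beside 7.94% and 9.37% of all genes: Aifm1 (0.67 ± 0.17, adjusted p 0.0126), Xiap (0.80 ± 0.25, adjusted p 0.0367), Birc6 (0.56 ± 0.18, adjusted p 0.0386) and Huwe1, the ubiquitin ligase of MCL-1 (0.81 ± 0.17, adjusted p 0.00454), were higher, and Bmf (-1.07 ± 0.23, adjusted p 0.00470) and Dffa (-0.41 ± 0.12, adjusted p 0.0278) lower. Between PGC-ESC BaxKO and PGC-ESC DKO 9 of 34 were called, 7 higher and 2 lower (12.2% and 11.4% of all genes): Aifm1, Xiap, Birc6, Huwe1, Hrk, Pmaip1 and Usp9x, the deubiquitinase of MCL-1, were higher (log2 differences from 0.59 for Birc6 to 2.60 for Pmaip1) and Endog (-0.88) and Fbxw7 (-0.30) lower. Pmaip1 is a gene named in the DKO label, so its place among the 7 follows from the genotype. Aifm1, Xiap, Huwe1 and Usp9x are X-linked, and all 4 were higher in PGC-ESC BaxKO 1, 3 and 4, which had no Y-linked reads, than in lines 2 and 5; Aifm1, for example, was at 210.5, 219 and 192 CPM in the former and 112 and 121 CPM in the latter, beside 93.6 to 109.0 CPM in ESC Host. In Host and DKO lines, lack of Y-linked reads did not go with that Aifm1 level. ESC Host 1 to 3 and PGC-ESC DKO 1 and 2 also had none, with Aifm1 at 97.0 to 109.0 CPM. BaxHet, which has the strain label of the BaxKO lines, had no Y-linked reads either. Its levels were 139 CPM for Aifm1, 1031 for Huwe1, 809 for Usp9x and 129 for Xiap. Each was above PGC-ESC BaxKO 2 and 5 and above every ESC Host library. Both ESC BaxKO lines had Y-linked reads (244 and 188 CPM) and Aifm1 at 107 CPM. With lines 2 and 5 alone, 4 listed genes were called against ESC Host, of which 1 was among the 6 (Bmf) and 3 were not (Bid 0.73, Casp9 0.68 and Pmaip1 -2.90). Against PGC-ESC DKO 3 were called, of which 1 was among the 9 (Endog) and the others were Bid (0.88) and Casp9 (0.70). The part of the X-linked difference in these calls was not tested beyond this.

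The genes most like each of the 5 by Pearson correlation of log2 CPM over the 20 libraries are given as a description; the libraries share strain, state and depth differences. For Bax they were Ftl1 (r = 0.971), the ferritin light chain gene next to it on chromosome 7, Ush1c (0.969) and Htatip2 (0.960). All 3 lie on chromosome 7, which holds 7.91% of the table's genes. Ftl1 was at 614 to 735 CPM in the 7 BaxKO libraries, 1620.3 CPM in BaxHet and 2715 to 5393 CPM in the 7 Host and DKO ESC and PGC-ESC libraries. Ush1c was at 0 to 0.0722 CPM in BaxKO and 2.38 to 11.2 CPM in those 7, and Htatip2 at 1.26 to 2.25 and 17.1 to 45.0 CPM. All 3 were lower in the Bax lines than in every Host and DKO library of ESC and PGC-ESC, and the knockout, the strain and the chromosome segment around Bax cannot be told apart.

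**Figure D5:**
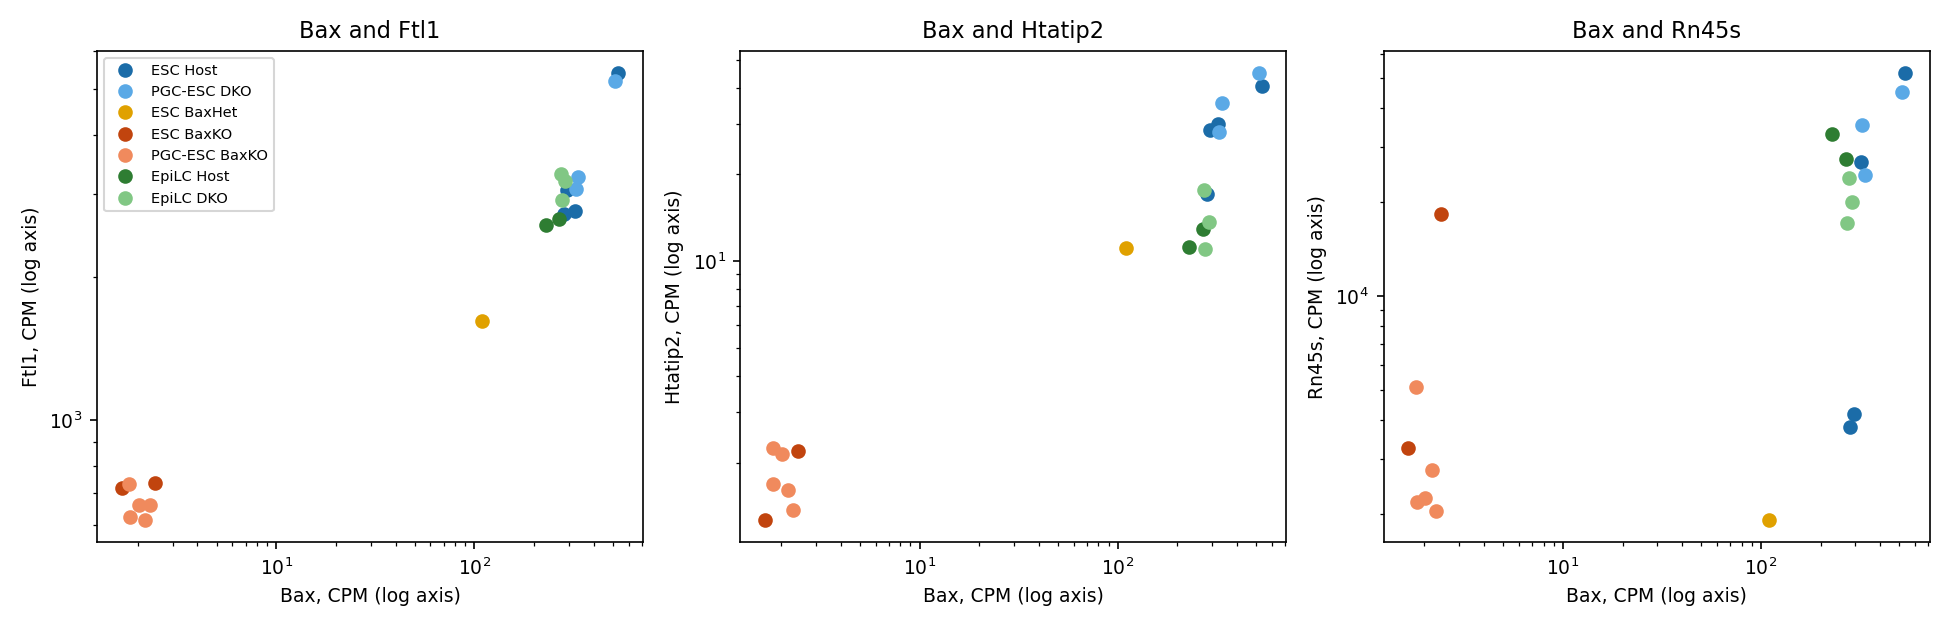
Level of Bax in each library against Ftl1, Htatip2 and Rn45s, all in CPM on log axes, coloured by group. The BaxKO libraries lie lowest in Ftl1 (614 to 735 CPM) as in Bax, BaxHet lies between, and ESC Host 4 and PGC-ESC DKO 2 lie highest in Bax, Ftl1 and Rn45s.

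For 3 of the other 4 genes the nearest patterns named here set the EpiLC libraries apart. Those of Bak1 included D630039A03Rik (0.940) and Rps6kl1 (0.938), both lower in every EpiLC library than in any other. Those of Bcl2 were Fhdc1 (0.947), Kcnq3 (0.943) and Sorcs1 (0.943), and those of Mcl1 were Snap47 (0.943), Platr22 (0.939) and Thap6 (0.929), each higher in every EpiLC library than in any other. Those of Bcl2l1 included Safb2 (0.928) and Snapc2 (0.924), whose EpiLC levels overlapped the rest, Safb2 at 128 to 157 CPM against 140 to 195 CPM, for example. Within the 15 ESC and PGC-ESC libraries alone, the 3 of Bcl2 had r of 0.730, 0.598 and 0.534, lower than over all 20.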

How the data were processed

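The authors deposited whole-number read counts per gene for 20 libraries. Alignment with STAR 2.7.7a to build mm10 is named in the submitters' processing notes; the counting tool, annotation and strand setting were not given in the sources used here. These counts went into edgeR's quasi-likelihood F test (version 4.0.16, R 4.3.3) (TMM scaling, default filter on low counts, 7 group coefficients, 13 residual degrees of freedom), with Benjamini-Hochberg adjustment over 16363 genes and a threshold of 0.05. Log2 fold changes are first group minus second, ± SE; the statistical tests were two-sided. CPM is per library total; log2 CPM for correlations used TMM scaling and a prior count of 2. Replicates are lines, and p-values measure the spread between these libraries.

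The 9 comparisons, the lists and the 5 genes were chosen with earlier results of these data known. From the lists, up to 4 called genes per list and comparison with the smallest adjusted p were named (otherwise the most abundant); further listed genes were named after their values were seen. Each gene's 3 nearest by Pearson r were named. A few genes that these rules select are not reported here. Alternatives were DESeq2 1.42.0, another scaling, no filter, the compared groups alone, an Rn45s term, each library left out and a block by cell line. Library totals without scaling, single Rn45s sets, the table without Rn45s, and only PGC-ESC BaxKO lines with Y-linked reads were added after seeing the data. EpiLC libraries and their parents are the same lines by the series' design text. Their deviations from group means correlated at r = 0.112, 0.116 and 0.0931 in the DKO lines and 0.185 in the Host lines. Between different DKO lines r ran from -0.0296 to -0.0683. With 2 Host lines the deviations mirror each other, so the value between different Host lines (-0.185) is fixed by the other. The main fit has no term for line. Gene positions and exon lengths are from GENCODE M21 (GRCm38, the build of mm10), upstream windows from RefSeq GRCm38.p6. The test was also run on simulated counts of independent libraries. Those counts held no line pairs and no Rn45s sets, so that run cannot show how either affects the calls. Figures were drawn in Python 3.11.15.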

Additional observations from a re-analysis of the deposited data

Results flagged for a closer look

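Bax in ESC Host 4 stood apart from the other 3 ESC Host lines, at 533 CPM against 283 to 321 CPM. The gap took up 0.847 of the group's range, over Dixon's critical value of 0.829 for 4 samples. The 5 genes were examined in the groups of 4 or 5 libraries, 10 sets in all, and chance flags about 1 set in 20. The same library had the highest Rn45s level of the 20 (51924 CPM) and the highest Ftl1 level (5393 CPM); the part of these in its Bax level was not tested.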

How the results depend on the processing

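Over the alternatives, 693 of 718 log2 fold changes of the 5 genes kept their direction where called and their side of the threshold, 16 lost a call, 9 gained one and none reversed. The number of the 5 genes called fell to 1 between ESC BaxKO and ESC Host in a fit of the compared groups alone and within the low Rn45s set (leave-one-out range 1 to 2), to 1 between PGC-ESC BaxKO and ESC Host within the low Rn45s set and with only the PGC-ESC BaxKO lines that have Y-linked reads, and to 1 between PGC-ESC BaxKO and PGC-ESC DKO with the Rn45s set as a term; the other 136 of 144 counts were within 1.5 times. Leaving out libraries gave 3 to 5 genes in EpiLC Host and 4 to 5 in EpiLC DKO. Apart from leaving fewer libraries in a fit, the cause was not tested.

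With the replicate block by cell line (10 libraries, 3 residual degrees of freedom) all 5 genes were called in EpiLC Host, Bax included (-0.97), and 5 in EpiLC DKO; it changed no other call of the 5 genes. No paired analysis was possible for EpiLC DKO against EpiLC Host because they share no line.

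Counts over all genes moved by more than 1.5 times in 40 of 144 alternatives. They ran from 33 to 1419 between ESC BaxKO and ESC Host (821 as reported), 361 to 3708 between PGC-ESC BaxKO and ESC Host (2834), 204 to 4689 between PGC-ESC BaxKO and PGC-ESC DKO (3858), 0 to 71 between PGC-ESC BaxKO and ESC BaxKO (6), 9 to 90 between PGC-ESC DKO and ESC Host (19), 5 to 33 between EpiLC DKO and EpiLC Host (7) and 0 to 5 for the difference of responses (1); the highest were from DESeq2. For ESC BaxKO against ESC Host the count was 136 with the compared groups alone, 245 and 182 without ESC BaxKO 1 and 2, and 537 without ESC Host 3. For PGC-ESC BaxKO against ESC Host it was 1024 with the compared groups alone, 1108 with an Rn45s term, 1142 with only the lines with Y-linked reads, 1862 and 1845 without ESC Host 3 and 4, and 1768 without PGC-ESC BaxKO 4. For PGC-ESC BaxKO against PGC-ESC DKO it was 1519 with only the lines with Y-linked reads and 1552 without PGC-ESC DKO 2. It was 44 for PGC-ESC DKO against ESC Host without ESC Host 4 and 11 for EpiLC DKO against EpiLC Host without EpiLC DKO 1. Library totals without scaling shifted the median log2 fold change by 0.16 between PGC-ESC BaxKO and PGC-ESC DKO, by 0.13 in EpiLC Host and by 0.20 in EpiLC DKO. List counts moved in 118 alternatives, and the nearest genes in 9 of 10. Bcl2 rested on 1 to 20 reads a library outside EpiLCs, so its differences there are limited by depth.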
